A study of Mus musculus with 18 samples.

Results

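T cell and checkpoint genes were followed through the stages of skin carcinogenesis in the ultraviolet-irradiated mouse. They are 10 genes chosen by name, namely Cd3d, Cd3e, Cd3g, Cd247, Cd4, Cd8a, Foxp3, Ctla4, Gzmb and Cd274, and 10 of 10 were present among the 14521 named genes of the table. All mice were female SKH-1E hairless littermates, which lack the Hairless gene product, received chronic solar-simulated ultraviolet radiation and were sampled after irradiation had stopped. From each of 6 mice (numbers 2, 3, 7, 8, 9 and 10) came 1 library of non-lesional irradiated skin (CHR), 1 of a papilloma (PAP), which is a benign epidermal outgrowth, and 1 of a cutaneous squamous cell carcinoma (SCC), so that n = 6 in each group. Unirradiated skin was not analysed here, and all 3 groups therefore share the irradiation. The animals' age at sampling is not given in the labels. The specimens were whole pieces of tissue in which lesions had been graded by histology, not sorted cells, and a bulk library cannot tell apart fewer cells of a type from less RNA per cell.

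T cells recognise antigen through a receptor whose signal is carried by the CD3 chains: Cd3d, Cd3e and Cd3g encode the delta, epsilon and gamma chains, and Cd247 encodes the zeta chain. CD4 and CD8 are coreceptors that bind major histocompatibility molecules and mark helper and cytotoxic lineages. FOXP3 is the transcription factor that defines regulatory T cells, CTLA-4 is an inhibitory receptor that competes with CD28 for CD80 and CD86, granzyme B is a protease released by cytotoxic lymphocytes, and PD-L1 (Cd274) is the ligand of the inhibitory receptor PD-1 and can be made by epithelial and myeloid cells. In skin, T cells lie in the epidermis and the dermis, and in the mouse the epidermis also holds a resident population of gamma-delta T cells.

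The CD3 genes Cd3g, Cd3d and Cd3e are neighbours on chromosome 9 (GRCm38, chr9:44969572-44980431 on the minus strand, chr9:44981786-44987339 on the plus strand and chr9:44998740-45009627 on the minus strand, from GENCODE M21), and Cd3g and Cd3d are transcribed away from each other. Cd247 lies apart, at chr1:165788681-165877277 on the plus strand. Cd4 (chr6:124864692-124888221, minus strand) and Cd8a (chr6:71373427-71379173, plus strand) share a chromosome. Foxp3 is at chrX:7573644-7595245 and Ctla4 at chr1:60887000-60915832, both on the plus strand, Gzmb is at chr14:56258838-56262260 on the minus strand and Cd274 at chr19:29367455-29388095 on the plus strand. Values are those of whole genes, summed over their exons.

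Because the 4 CD3 chains fell together in papillomas and Gzmb did not pass the test there, the 250 bases before the start of each of these genes are shown, with those of Cd274. Capitals mark the motifs searched on both strands, which were AGGAAG (the core bound by ETS factors), TGTGGT (RUNX), CACCTG (an E-box), TTCNNNGAA (STAT) and GGGCGG (a GC box). The sequences are from RefSeq (GRCm38.p6) and run 5′ to 3′ on the gene's own strand. A window was found for 9 of 10 genes, and none was found for Cd4.
Cd3d (chr9:44981536-44981785, plus strand): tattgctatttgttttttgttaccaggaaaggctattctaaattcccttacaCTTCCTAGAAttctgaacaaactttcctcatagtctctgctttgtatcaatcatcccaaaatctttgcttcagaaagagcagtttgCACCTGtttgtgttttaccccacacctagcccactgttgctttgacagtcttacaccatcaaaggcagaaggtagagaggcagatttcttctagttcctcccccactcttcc
Cd3e (chr9:45009612-45009861, minus strand): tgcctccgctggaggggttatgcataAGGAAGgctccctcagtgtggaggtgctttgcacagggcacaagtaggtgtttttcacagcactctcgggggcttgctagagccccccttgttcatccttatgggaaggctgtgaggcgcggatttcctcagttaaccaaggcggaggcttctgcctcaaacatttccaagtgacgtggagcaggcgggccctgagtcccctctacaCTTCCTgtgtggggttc
Cd3g (chr9:44980432-44980681, minus strand): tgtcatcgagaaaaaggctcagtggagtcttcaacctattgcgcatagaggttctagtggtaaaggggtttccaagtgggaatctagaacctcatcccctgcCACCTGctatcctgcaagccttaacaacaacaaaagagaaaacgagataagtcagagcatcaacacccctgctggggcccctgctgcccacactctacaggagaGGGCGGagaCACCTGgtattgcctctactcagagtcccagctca
Cd247 (chr1:165788431-165788680, plus strand): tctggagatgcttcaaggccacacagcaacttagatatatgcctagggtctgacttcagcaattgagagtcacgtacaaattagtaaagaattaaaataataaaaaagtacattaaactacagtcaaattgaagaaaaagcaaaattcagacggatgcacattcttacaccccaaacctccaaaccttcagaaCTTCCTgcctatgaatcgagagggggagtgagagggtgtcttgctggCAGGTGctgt
Gzmb (chr14:56262335-56262584, minus strand): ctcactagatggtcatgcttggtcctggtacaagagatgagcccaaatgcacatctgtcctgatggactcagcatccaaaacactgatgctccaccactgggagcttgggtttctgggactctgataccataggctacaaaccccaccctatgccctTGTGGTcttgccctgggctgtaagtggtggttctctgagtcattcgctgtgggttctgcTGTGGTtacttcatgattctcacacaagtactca
Cd274 (chr19:29367188-29367437, plus strand): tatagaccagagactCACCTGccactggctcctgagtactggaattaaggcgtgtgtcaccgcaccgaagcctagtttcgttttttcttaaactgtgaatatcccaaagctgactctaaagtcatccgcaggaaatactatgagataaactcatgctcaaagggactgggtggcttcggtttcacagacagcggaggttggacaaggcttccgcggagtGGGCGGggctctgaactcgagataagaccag

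AGGAAG was present in the windows of 5 members (Cd3d, Cd3e, Cd247, Ctla4 and 1 of the Foxp3 windows) and in 29.5% of 32851 windows of the same length over all genes. CACCTG was present in those of 5 members (Cd3d, Cd3g, Cd247, Ctla4 and Cd274) and in 17.2% of all windows. TGTGGT was found in 1 member, Gzmb, which held it at 34 and 93 bases before the start, and in 14.1% of all windows. TTCNNNGAA was found for Cd3d and Foxp3, and in 7.02% of all windows. In Cd3d its letters overlap those of the ETS core. GGGCGG was found for Cd3g and Cd274, and in 32.7% of all windows. These matches describe letters in a window and are not binding sites.

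The depth recovered from the table was 15.4 to 21.0 M reads per library. In the text a normalised read count is the number of reads recovered from the deposited transformed value, divided by the library's size factor. Tests were made with limma on log2(value + 1) of the deposited values with the mouse as a block, two-sided, and p-values were adjusted over all 14521 genes with a threshold of 0.05. Fold changes between means of normalised counts are therefore given beside the log2 fold change of the test, which is smaller for weakly expressed genes since the deposited scale compresses low values. Of 15 keratinocyte genes, 15 were measured. Their summed count ran from 351360 in the SCC of mouse 7 to 1946800 in the PAP of mouse 7. Libraries differed in tissue other than epidermis and leukocytes. The summed count of 14 skeletal muscle genes was 30366 in the PAP of mouse 2 and 318 to 1398 in the other papillomas. The lowest value in CHR was 403540. In the SCC of mouse 10 the sum was 504, and in the other carcinomas it was 75571 to 202050. These differences stand beside every result below, and their part in the results was not tested.

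In papillomas, transcripts of the T cell receptor complex, both coreceptors, the regulatory genes and the PD-L1 gene were lower than in irradiated skin of the same mice. In the PAP vs CHR comparison 9 of 10 members fell and 0 rose, where 52.6% of all genes passed the test, 29.3% lower and 23.3% higher. The exception was Gzmb. Each of the 9 was lower in 6 of 6 mice, a pattern shown by 26.4% of all genes, and for 7 of them the groups did not overlap, which held with the same direction for 19.3% of all genes. The median log2 fold change of the 10 genes was -0.83, beside 0.00 over all genes. Of the 9 calls, 5 held when the libraries were brought to a common distribution by quantile normalisation (Cd3e, Cd3g, Cd247, Cd4 and Cd274), and the direction held for all 9. This scaling moved the median of all genes by 0.16 and turned the split of all calls from 3388 higher and 4251 lower to 5339 higher and 3211 lower.

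**Figure D1:**
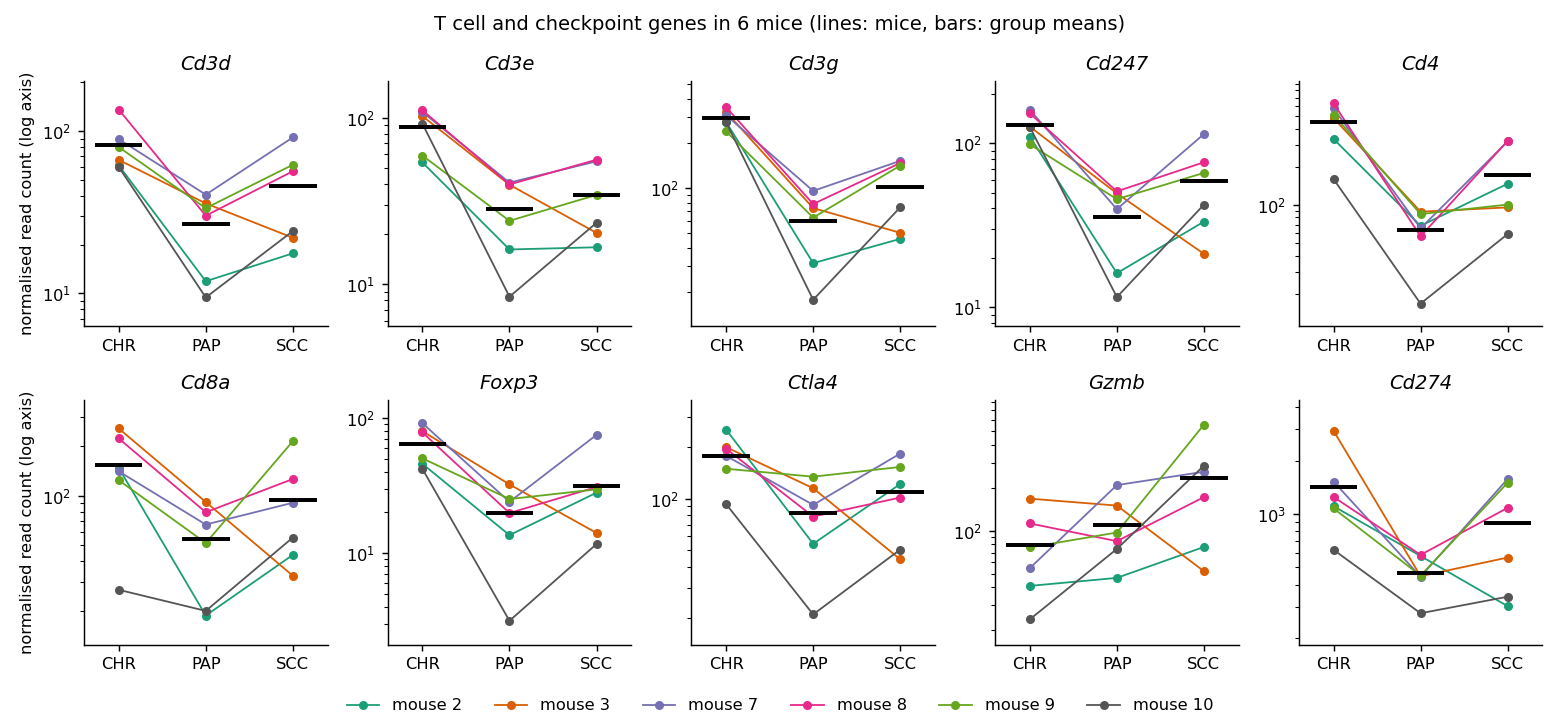
Normalised read counts (log axis) of the 10 genes in CHR, PAP and SCC, with 1 line for each of the 6 mice and a black bar for each group mean. For 9 genes the line of every mouse falls from CHR to PAP, and the PAP of mouse 10 is the lowest PAP library in 8 of 10 genes.

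Among the CD3 chains, Cd3g had the highest level per kilobase of exon in each group. Its normalised counts in CHR ran from 241 to 350 (median 294), in PAP from 17.8 to 95.9 (median 68.5) and in SCC from 45.7 to 153 (median 108). The CHR libraries lay above all PAP and all SCC libraries, whereas PAP and SCC overlapped. The PAP mean of 60.1 ± 29.7 (SD, n = 6) was 4.94-fold under the CHR mean of 297 ± 39.03 (log2 fold change -1.60 ± 0.17 SE, adjusted p = 7.8e-06).

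Cd3d ranged from 60.2 to 136 in CHR (median 73.3), from 9.44 to 40.7 in PAP (median 31.9) and from 17.7 to 91.7 in SCC (median 40.5). No PAP library reached the lowest CHR library, and the mean was 3.06-fold lower in PAP (log2 fold change -0.78 ± 0.13, adjusted p = 0.00026). Cd3e ranged from 53.7 to 111 in CHR (median 96.9), from 8.39 to 40.7 in PAP (median 31.7) and from 16.6 to 55.8 in SCC (median 28.8). It was 3.12-fold lower in PAP (-0.82 ± 0.12, adjusted p = 0.000103), again with no overlap. The zeta chain gene Cd247 ranged from 98.1 to 159 in CHR (median 126), from 11.5 to 50.8 in PAP (median 42.6) and from 21.1 to 113 in SCC (median 54.0), and its PAP mean was 3.61-fold under that of CHR (-1.04 ± 0.16, adjusted p = 0.000119). All 4 chains therefore showed the same order of group means, with CHR highest, SCC between and PAP lowest. In PAP of mouse 10 these values rested on 8 to 17 reads per gene. Within groups the 4 chains also varied together from library to library, with Pearson coefficients of 0.80 to 0.91 among their 6 pairs over 18 libraries after removal of group means.

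Of the coreceptors, Cd4 showed the steepest fall of the 10 genes. It ranged from 161 to 633 in CHR (median 500), from 16.8 to 88.8 in PAP (median 67.2) and from 59.2 to 320 in SCC (median 124). The CHR and PAP libraries did not overlap, and the lowest CHR library, that of mouse 10, stood well under the others. The mean was 7.08-fold lower in PAP (log2 fold change -1.97 ± 0.20, adjusted p = 6.0e-06). Cd4 is also transcribed in macrophages and dendritic cells, so its level is not that of helper T cells alone.

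Cd8a ranged from 26.8 to 256 in CHR (median 144), from 18.7 to 91.5 in PAP (median 59.1) and from 32.6 to 214 in SCC (median 73.1). The 3 groups overlapped, although PAP was under CHR in each mouse, and the PAP mean was 2.80-fold lower (-0.85 ± 0.26, adjusted p = 0.0139). This call was lost without mouse 2 (adjusted p = 0.0577). Cd8b1, which encodes the partner chain of CD8, was the gene whose library pattern was most like that of Cd8a (Pearson coefficient 0.94 over 18 libraries after removal of group means) and was also lower in PAP, with a mean of 16.3 against 60.5 (-0.73 ± 0.18, adjusted p = 0.00441), a call lost under quantile normalisation (-0.22, adjusted p = 0.37).

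The regulatory genes followed. Foxp3 had the lowest level of the 10 genes per kilobase of exon in each group. It ranged from 42.1 to 91.8 in CHR (median 64.5), from 3.15 to 32.3 in PAP (median 21.9) and from 11.7 to 75.3 in SCC (median 28.9). CHR and PAP did not overlap, and the fall was 3.30-fold (log2 fold change -0.75 ± 0.13, adjusted p = 0.00042). The lowest PAP value, that of mouse 10, was 3 reads. Ctla4 ranged from 92.8 to 253 in CHR (median 187), from 21.0 to 134 in PAP (median 85.1) and from 44.1 to 183 in SCC (median 111). Its groups overlapped, and the 2.16-fold fall in PAP was the smallest of the 9 (-0.77 ± 0.19, adjusted p = 0.00482).

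Gzmb stood apart from the T cell genes. It ranged from 23.9 to 168 in CHR (median 65.5), from 46.7 to 209 in PAP (median 90.7) and from 52.0 to 553 in SCC (median 215). The groups overlapped throughout, and the spread between mice within a group was wide. The PAP mean was 1.39 times that of CHR, with 4 of 6 mice higher, and the difference did not pass the test (log2 fold change 0.32 ± 0.35, adjusted p = 0.469, 95% interval -0.44 to 1.07). Granzyme genes are a family of related sequences, so that reads could have been shared between copies, and their separate levels are uncertain to that extent.

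Cd274 had the highest level per kilobase of the 10 genes in each group. It ranged from 628 to 2943 in CHR (median 1177), from 276 to 588 in PAP (median 448) and from 302 to 1575 in SCC (median 826). The 6 PAP libraries lay close together and under all 6 CHR libraries, and the mean was 3.06-fold lower in PAP (-1.36 ± 0.32, adjusted p = 0.0035). In CHR the library of mouse 3 was far above the rest.

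On recovered reads, limma-voom with the same block called 9 of the 10 lower in PAP vs CHR (53.2% of all genes called in either direction), 1 higher in SCC vs PAP (12%) and 6 lower in SCC vs CHR (37.9%). Its log2 fold changes were larger, with medians over the 10 genes of -1.65, 0.71 and -1.04. For Cd4 in PAP the value was -2.88 ± 0.29, and for Foxp3 -1.78 ± 0.37.

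**Figure D2:**
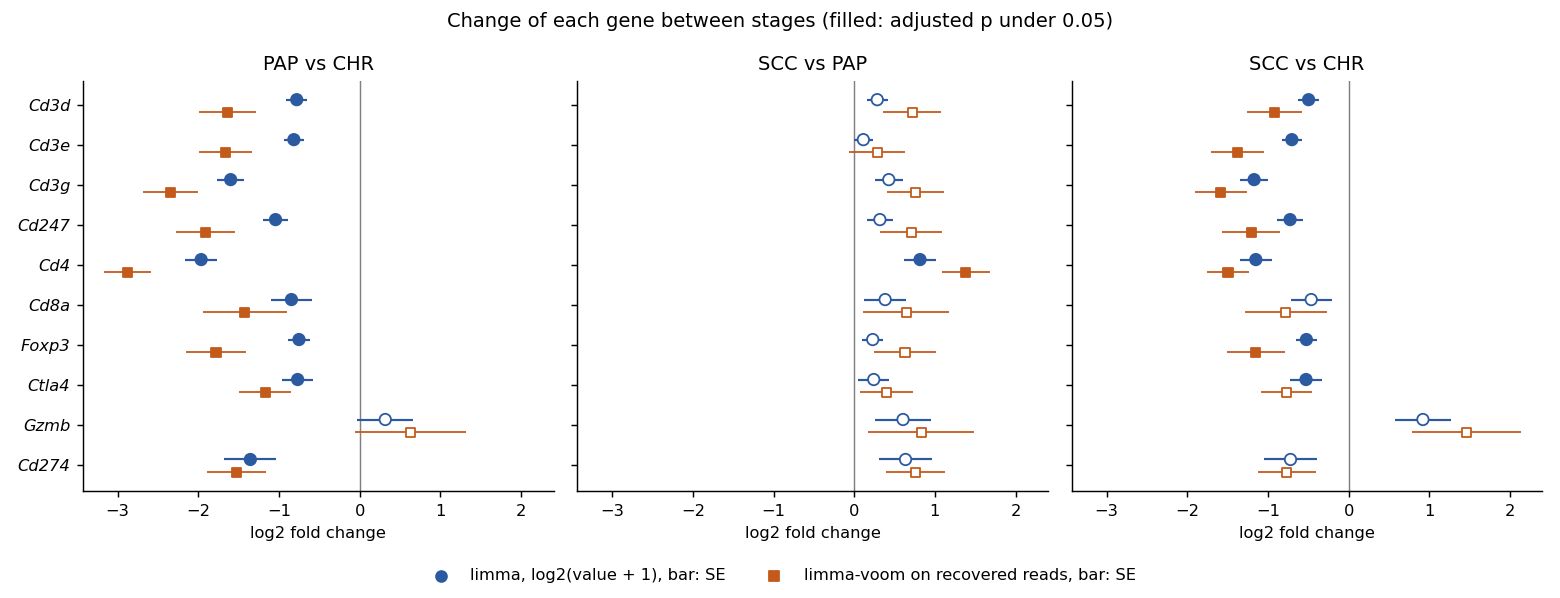
Log2 fold change (x axis) of each gene in the 3 comparisons, by limma on the deposited scale (circles) and by limma-voom on recovered reads (squares), with bars of 1 SE and filled symbols for an adjusted p under 0.05. In PAP vs CHR 9 genes are filled to the left of 0 by both methods, in SCC vs PAP Cd4 alone is filled, and the values on recovered reads lie farther from 0.

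Carcinomas were then compared with papillomas of the same mice. The 10 means were higher in SCC in every case, but Cd4 was the 1 member that passed the test, where 9.85% of all genes did so, 8.75% higher and 1.1% lower. Cd4 was 2.73-fold higher (log2 fold change 0.82 ± 0.20, adjusted p = 0.0255) and higher in 6 of 6 mice, which held for 8.5% of all genes. Its groups overlapped. The call was lost in 7 alternatives, among them those without the mouse block (adjusted p = 0.119), without mouse 7 (adjusted p = 0.141) and without mouse 8 (adjusted p = 0.131), with adjusted p between 0.0135 and 0.214 over all of them. Leaving out either mouse also left 0 of 14521 genes called (before adjustment, 2450 and 2594 had a p under 0.05), and without mouse 3 the count was 471 against 1430. The calls of this comparison named below carry the same limit.

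The other 9 genes were each higher in SCC in 5 of 6 mice. Their ratios of means lay between 1.22 for Cd3e and 2.11 for Gzmb, with adjusted p from 0.135 for Cd3g to 0.617 for Cd3e. For Cd3g the mean rose from 60.1 to 102 without passing the test, and the 95% interval of its log2 fold change ran from 0.06 to 0.80. For Cd274 the interval ran from -0.06 to 1.33, and for Cd8a from -0.17 to 0.94. Mouse 3 was the animal with the lower SCC value for Cd3d, Cd3e, Cd3g, Cd247, Cd8a, Foxp3, Ctla4 and Gzmb, and mouse 2 for Cd274.

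The carcinomas were spread widely. Those of mice 7, 8 and 9 were among the 3 highest SCC libraries in 10, 8 and 9 of 10 genes, and those of mice 2, 3 and 10 held the lowest value in 4, 4 and 2 genes. The summed level of the CD3 chains per kilobase was 132, 104 and 98.4 in the SCC of mice 7, 8 and 9, and 34.0, 36.4 and 49.8 in those of mice 2, 3 and 10, whereas it lay between 151 and 238 in CHR. The sum of 16 pan-leukocyte genes per kilobase was also highest in the SCC of mouse 7 (8876) and lowest in that of mouse 10 (1417).

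Against irradiated skin, the genes of the receptor complex were also lower in carcinomas. In SCC vs CHR 7 of 10 members fell (Cd3d, Cd3e, Cd3g, Cd247, Cd4, Foxp3 and Ctla4) and 0 rose, where 38.4% of all genes passed the test, 22.7% lower and 15.8% higher. Quantile normalisation turned that split from 2291 higher and 3292 lower to 3667 higher and 2680 lower, and left 4 members called lower (Cd3e, Cd3g, Cd247 and Cd4). Cd3g was the 1 member whose groups did not overlap, as was the case with the same direction for 11.3% of all genes, and it was 2.90-fold lower (log2 fold change -1.17 ± 0.17, adjusted p = 0.000246). Cd4 was 2.59-fold lower (-1.15 ± 0.20, adjusted p = 0.000843), Cd3e 2.56-fold (-0.70 ± 0.12, adjusted p = 0.000728) and Cd247 2.18-fold (-0.73 ± 0.16, adjusted p = 0.00312), each in 6 of 6 mice, as were 22.4% of all genes. Foxp3 was 2.05-fold lower (-0.52 ± 0.13, adjusted p = 0.00789) and Cd3d 1.80-fold lower (-0.50 ± 0.13, adjusted p = 0.00927), and both calls were lost under quantile normalisation (adjusted p = 0.0828 and 0.149).

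Ctla4 passed narrowly in SCC vs CHR (1.63-fold lower, -0.53 ± 0.19, adjusted p = 0.0456), with 4 of 6 mice lower. This call held in 5 of 15 alternatives, with adjusted p from 0.035 to 0.18, and was lost without the mouse block (0.0989) and without mouse 2 (0.0887), 3 (0.118), 8 (0.12) or 10 (0.08805). Cd8a (1.63-fold lower, adjusted p = 0.17) and Cd274 (1.59-fold lower, adjusted p = 0.0946) did not pass, and each was lower in 4 of 6 mice. Gzmb had a mean of 233 ± 182 in SCC against 79.3 ± 53.0 in CHR, higher in 5 of 6 mice. This 2.94-fold difference did not pass the test (0.92 ± 0.35, adjusted p = 0.0519) and passed in 4 of 15 alternatives, among them those without the mouse block (adjusted p = 0.0498) and without mouse 3 (adjusted p = 0.0066).

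On a per-kilobase scale, which allows a rough comparison between genes, the order of the 10 genes differed between stages. The length used is that of all annotated exons of a gene, not of the transcripts present. Orders of genes therefore depend partly on the annotation. In CHR the mean level was highest for Cd274 (392 ± 221 normalised reads per kilobase), followed by Cd4 (112 ± 43.3), Cd3g (90.7 ± 11.9), Ctla4 (76.4 ± 23.1), Gzmb (55.2 ± 36.9), Cd3d (45.3 ± 15.8), Cd8a (42.1 ± 22.1), Cd247 (24.1 ± 4.42), Cd3e (21.5 ± 6.13) and Foxp3 (14.2 ± 4.62). The levels from Cd4 to Cd247 formed a series in which each gene was above the next in 3 to 5 of 6 libraries, so that neighbours there were not separated. Cd274 was above Cd4, and Cd3e above Foxp3, in 6 of 6 libraries.

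In PAP Gzmb took the place after Cd274, with 76.7 ± 41.1 against 128 ± 31.5 normalised reads per kilobase. It was above Ctla4 (35.4 ± 17.6) in 6 of 6 libraries, and Ctla4 was above Cd3g (18.4 ± 9.10) in 6 of 6. Cd4 had 15.8 ± 6.44, Cd8a 15.0 ± 8.36 and Cd3d 14.8 ± 7.21, which were not separated. In SCC Cd274 (247 ± 157) and Gzmb (162 ± 127) again led, followed by Ctla4 (46.7 ± 23.8) and Cd4 (43.1 ± 28.8), and Foxp3 (6.91 ± 5.01) was last.

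Ratios within a library, taken on the per-kilobase scale, compare members without the scaling between libraries. Cd4 and Cd274 are also transcribed outside T cells, so ratios that hold them do not describe T cells alone. All ratios are given with no test. Relative to the sum of the 4 CD3 chains, Gzmb was higher in PAP than in CHR in 6 of 6 mice. The ratio ran from 0.101 to 0.632 in CHR (median 0.26), from 0.982 to 3.49 in PAP (median 1.55) and from 0.994 to 3.99 in SCC (median 1.47), so that PAP and SCC lay above all CHR libraries. The within-mouse log2 change was 2.73 ± 1.41 (SD, n = 6) for PAP vs CHR, and 2.86 ± 1.57 for SCC vs CHR. Most genes rise relative to a falling denominator. Of 13692 genes with reads in every library, 78.6% had a higher ratio to the CD3 sum in PAP in 6 of 6 mice (63.8% in SCC). The ratio lay above all CHR libraries in all PAP libraries for 71.3% of these genes, and in all SCC libraries for 40.3%. The change of Gzmb was reached or exceeded by 16.3% of these genes in PAP vs CHR and by 2.62% in SCC vs CHR.

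The ratio of Cd8a to Cd4 ran from 0.185 to 0.585 in CHR (median 0.33), from 0.301 to 1.55 in PAP (median 1.13) and from 0.316 to 2.35 in SCC (median 0.407). In PAP it exceeded the CHR value in 5 of 6 mice, all but mouse 2, with a log2 change of 1.41 ± 1.22. The ratio of Foxp3 to the CD3 sum had medians of 0.0727 in CHR, 0.0904 in PAP and 0.0752 in SCC, and its log2 change of 0.18 ± 0.52 in PAP vs CHR was within the spread between mice. Ctla4 per Foxp3 was higher in PAP in 5 of 6 mice (log2 change 0.69 ± 0.68), with medians of 4.89, 7.81 and 7.45 in CHR, PAP and SCC. Cd274 relative to the CD3 sum had medians of 1.99 in CHR, 2.54 in PAP and 3.08 in SCC, and was higher in SCC than in CHR in 5 of 6 mice (0.64 ± 0.43). The median gene rose by more relative to the CD3 sum (1.42 in SCC vs CHR and 2.16 in PAP vs CHR).

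**Figure D3:**
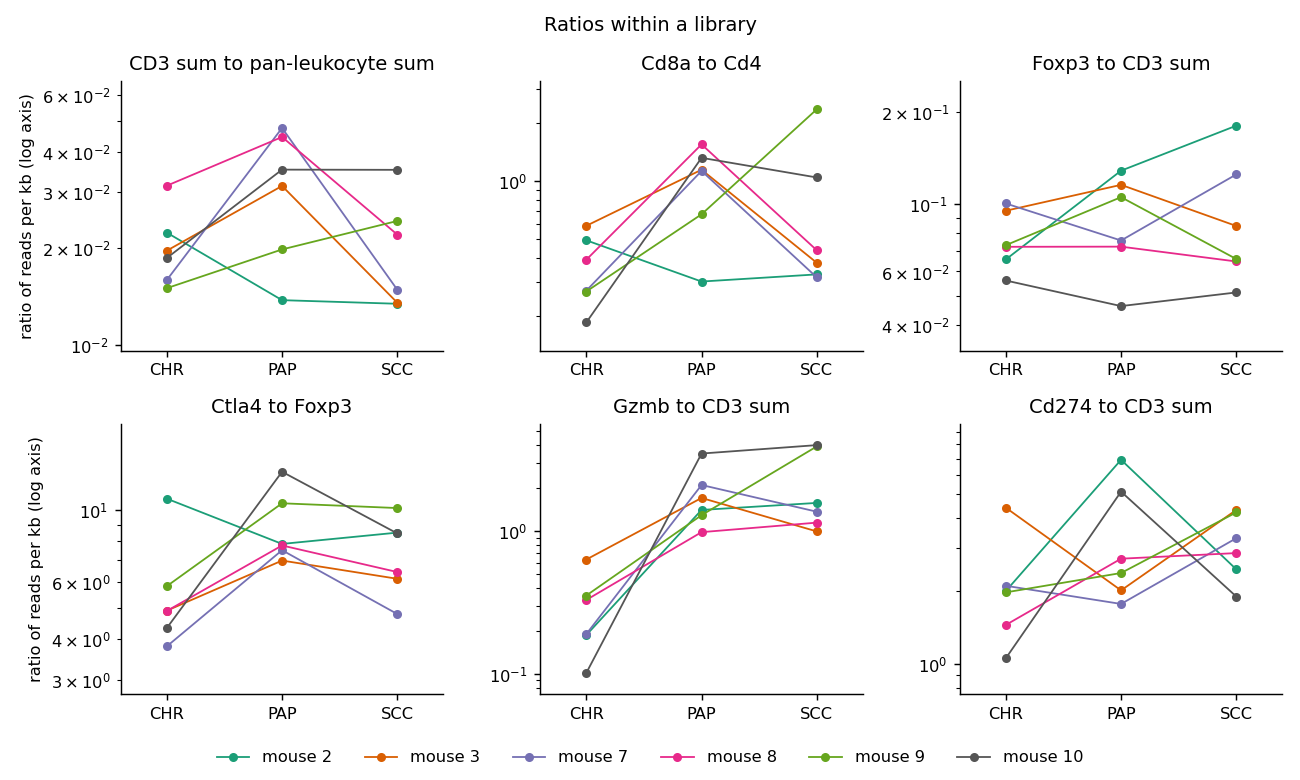
Ratios of normalised reads per kilobase (log axis) within each library, with 1 line for each of the 6 mice across CHR, PAP and SCC. The ratio of Gzmb to the CD3 sum is above 0.98 in all PAP and SCC libraries and under 0.64 in all CHR libraries. Such a separation from CHR is shared by 71.3% of genes with reads in every library in PAP and by 40.3% in SCC. The ratio of Foxp3 to the CD3 sum crosses between mice in both directions.

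Leukocyte genes at large were lower in the same libraries. The 16 pan-leukocyte genes, which include Ptprc (CD45, the common leukocyte antigen), all fell in PAP vs CHR, with a median log2 fold change of -2.28. In SCC vs PAP 15 of them rose (median 1.03). Over all genes 29.3% were lower in PAP vs CHR and 8.75% higher in SCC vs PAP. Ptprc had means of 6495, 1271 and 3257 in CHR, PAP and SCC, and Itgb2, which encodes the shared beta chain of leukocyte integrins, fell by 3.78 on the log2 scale in PAP (adjusted p = 1.2e-05). The ratio of the CD3 sum to the pan-leukocyte sum had a median of 0.0192 in CHR, 0.0332 in PAP and 0.0185 in SCC. In PAP it exceeded the CHR value in 5 of 6 mice (log2 change 0.56 ± 0.75) and lower in SCC than in PAP in 5 of 6 (-0.61 ± 0.80). The groups overlapped, and in the plot of CD3 against pan-leukocyte sums the 18 libraries fall along a band.

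**Figure D4:**
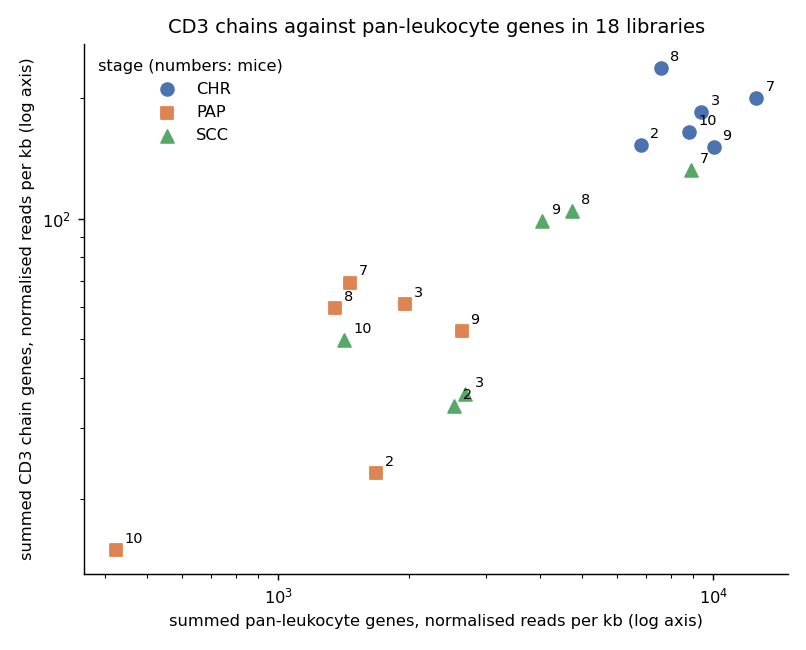
Summed level of the 4 CD3 chain genes (y axis) against that of 16 pan-leukocyte genes (x axis), both in normalised reads per kilobase on log axes, for 18 libraries marked by stage and mouse number. The CHR libraries lie at the upper right (CD3 sums 151 to 238), the PAP of mouse 10 at the lower left (14.9), and the SCC of mice 7, 8 and 9 between.

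Other genes of T cell receptor signalling and differentiation were also lower in papillomas, where 29.3% of all genes were lower. Of 26 measured genes of this list, 25 fell in PAP and 0 rose (median log2 fold change -1.09), and the exception was Cd5, named here after its values were seen (adjusted p = 0.0752). Il7r, the receptor for a survival cytokine of T cells, fell from a mean of 2472 to 254 (log2 fold change -2.97 ± 0.29, adjusted p = 4.1e-06). Lcp2, an adaptor of T cell receptor signalling also used by other leukocytes, fell by 1.94 and Cd2, an adhesion receptor of T and NK cells, by 1.59 on the log2 scale. In SCC vs PAP 3 rose, namely Lcp2 (0.99 ± 0.24), Skap1 (0.58 ± 0.15) and Ubash3a (0.48 ± 0.13). Over all genes 8.75% were higher in that comparison, and the CD3 chains did not pass there. In SCC vs CHR 22 of 26 were lower (median -0.70), among them Il7r (-2.01 ± 0.29) and Lat (-1.17 ± 0.14), the membrane adaptor of the receptor.

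Of 20 transcription factors with roles in T cells, 9 fell in PAP and 0 rose (median -0.26), led by Ikzf1 (-1.99 ± 0.20), which is expressed in lymphoid and other blood cells, and including Ikzf3 (-1.29 ± 0.17). Several of the 20 are also transcribed in keratinocytes. In SCC vs CHR 8 were lower. Over all genes 29.3% were lower in PAP and 22.7% in SCC, each against CHR. Of 14 genes associated with regulatory T cells, 8 fell in PAP and 8 in SCC relative to CHR (medians -0.55 and -0.56) and 0 rose in either. Itgae, the integrin that binds epithelial cadherin, fell in PAP (-1.71 ± 0.20) and in SCC vs CHR (-1.54 ± 0.20), with means of 944, 257 and 283 in CHR, PAP and SCC. Itgae, Icos, Il2ra, Ikzf2 and Ikzf4 are also held by other lists here. Of 7 measured genes of epidermal gamma-delta T cells 5 fell in PAP and 0 rose, but the receptor genes that define these cells were not among the genes analysed. Of the 7, Il2rb, Itgae, Klrk1, Crtam and Gzma are counted in other lists as well, and only Sox13 and Blk are not. This count is therefore not separate from those of the other lists.

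Among 21 cytotoxic and NK genes, 15 fell in PAP and 0 rose (median -0.70), where 29.3% of all genes were lower. The other 6 did not pass there, as was the case for Gzmb. Prf1, which encodes perforin, had means of 50.9 in CHR, 10.6 in PAP and 36.0 in SCC (PAP vs CHR -0.81 ± 0.22, adjusted p = 0.00806). This call was lost under quantile normalisation (-0.28, adjusted p = 0.3), and the SCC mean was 22.0 without mouse 9. Klrk1, an activating receptor of NK and T cells, fell by 1.41, and Ctsw, a protease of cytotoxic lymphocytes, by 1.29 on the log2 scale. Gzma, like Gzmb, did not pass in PAP vs CHR (means 59.1 and 43.3, adjusted p = 0.826). In SCC vs PAP 5 of the 21 rose, where 8.75% of all genes were higher. Relative to CHR, 2 rose in SCC and 5 fell, beside 15.8% and 22.7% of all genes. The 2 were Gzmd and Gzme, granzymes encoded on chromosome 14, as is Gzmb. Gzme had a mean of 0.489 in CHR, 3.71 in PAP and 45.3 in SCC (SCC vs CHR 1.11 ± 0.26, adjusted p = 0.00545), and Gzmd 0.47, 0.801 and 19.4. Single libraries weighed on these means: for Gzme the SCC mean was 22.4 without mouse 3 and the PAP mean 1.57 without mouse 9, and for Gzmd the SCC mean was 12.8 without mouse 3. Their CHR levels were at or near 0 reads, and the reservation on related granzyme sequences applies to them.

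**Figure D5:**
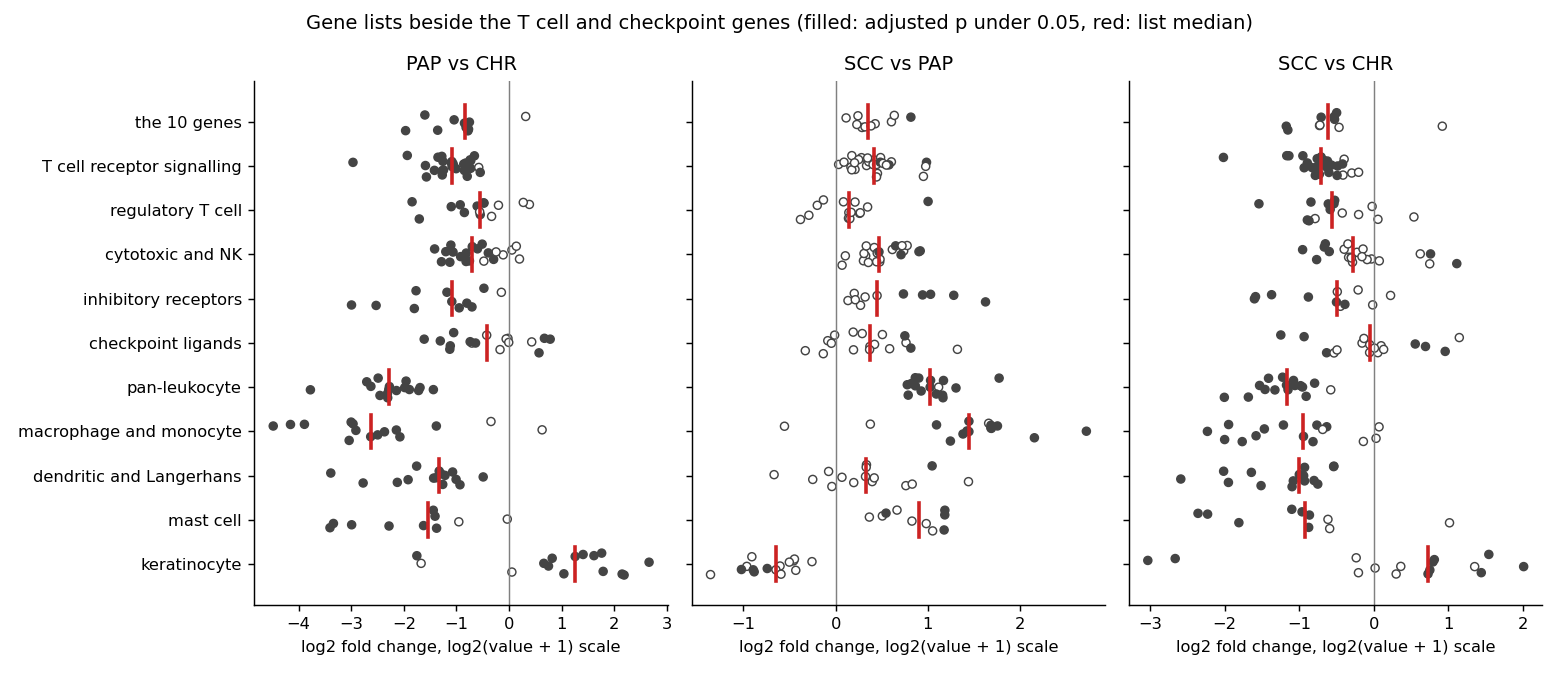
Log2 fold change (x axis, log2(value + 1) scale) of every measured gene of 11 gene lists in the 3 comparisons, with filled points for an adjusted p under 0.05 and a red line at the list median. In PAP vs CHR the medians are -0.83 for the 10 genes, -2.28 for pan-leukocyte genes and 1.26 for keratinocyte genes, and in SCC vs PAP the medians of the leukocyte lists lie to the right of 0.

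Inhibitory receptors other than Ctla4 were mostly lower in papillomas. Of 11 measured, 10 fell in PAP (29.3% of all genes) and 0 rose (median -1.09). In SCC vs PAP 5 rose (8.75% of all genes). The steepest falls were those of Vsir (listed as 4632428N05Rik, which encodes VISTA, means 3736, 456 and 1583 in CHR, PAP and SCC), Cd200r1 (411, 23.2 and 104) and Btla (331, 57.4 and 67.6). Vsir and Cd200r1 are abundant in myeloid cells, and Btla in B cells and dendritic cells as well as T cells. Pdcd1, the PD-1 gene, had means of 63.9, 29.9 and 46.6 and fell in PAP (-0.48 ± 0.14, adjusted p = 0.0115). That call was lost without the mouse block (adjusted p = 0.0617) and without mouse 8 (adjusted p = 0.0524), and its sign turned under quantile normalisation (0.05). Lag3 did not pass, with means of 45.6, 35.0 and 45.1. Havcr2 (TIM-3) fell in PAP (-1.18 ± 0.19, adjusted p = 0.000207) and rose in SCC vs PAP (0.73 ± 0.19, adjusted p = 0.0296).

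The ligands were less uniform. Of 17 measured genes beside Cd274, 7 fell and 3 rose in PAP (median -0.43), where 29.3% of all genes fell and 23.3% rose. The 3 were Cd276 (B7-H3), Pvr (CD155) and Tnfsf9 (the ligand of 4-1BB), named after their values were seen apart from Cd276. Cd276 had means of 382, 655 and 833 in CHR, PAP and SCC (SCC vs CHR 0.96 ± 0.18, adjusted p = 0.00135), Pvr 239, 391 and 394, and Tnfsf9 19.9, 76.0 and 65.7. These 3 were also the ligands that were higher in SCC vs CHR, and 3 other ligands were lower there. Over all genes 15.8% were higher and 22.7% lower in that comparison. Cd86 fell in PAP (-1.05 ± 0.21, adjusted p = 0.000952), while Cd80 did not pass (-0.43 ± 0.22, adjusted p = 0.12). Pdcd1lg2, the second ligand of PD-1, had means of 69.5 in CHR, 22.7 in PAP and 119 in SCC. The SCC mean rested on mouse 7 (496) and was 43.9 without it, under the CHR mean, and the SCC median was 47.6. The difference in PAP vs CHR did not pass (adjusted p = 0.0635) but did so in 4 alternatives, among them that without mouse 7 (adjusted p = 0.0113).

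Markers of most other cells were also lower in papillomas, where 29.3% of all genes were lower and 23.3% higher. In PAP vs CHR 13 of 15 macrophage and monocyte genes fell (summed count 55305 to 85827 in CHR and 5823 to 15995 in PAP), as did 15 of 15 dendritic and Langerhans genes (19734 to 44360 and 1538 to 16382), 8 of 10 mast cell genes, 4 of 4 measured B lineage genes, 14 of 14 skeletal muscle genes, 9 of 10 adipocyte genes, 9 of 11 fibroblast genes and 7 of 12 endothelial genes. Another 2 endothelial genes rose, Emcn and Flt1 (named after their values were seen in this comparison). Of the B lineage list, Cd79a, Ms4a1 and Pax5 were not among the genes analysed. Of 15 keratinocyte genes 12 rose in PAP (median 1.26) and 1 fell. In SCC vs PAP 12 of 15 macrophage genes, 13 of 14 muscle genes and 5 of 11 fibroblast genes rose, and 4 keratinocyte genes fell. Of 15 dendritic and Langerhans genes 1 rose, as did 1 of 10 adipocyte genes, and 0 of either list fell. In SCC vs CHR 15 of 16 pan-leukocyte genes (median -1.16), 15 of 15 dendritic and Langerhans genes, 11 of 15 macrophage genes, 7 of 10 mast cell genes, 14 of 14 muscle genes and 9 of 10 adipocyte genes were lower and 0 genes of these lists higher, while 7 of 15 keratinocyte genes were higher and 2 lower. In the same comparison 2 of 11 fibroblast genes were lower and 0 higher. Of 12 endothelial genes 2 were lower and 3 higher (median 0.02), beside 22.7% and 15.8% of all genes. No gene of any of these lists was at 0 reads in all libraries. The part of these cells in the values of the T cell genes was not tested.

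The genes whose library-to-library pattern was most like that of the CD3 chains were themselves mostly T cell genes. After removal of group means, the mean of the standardised CD3 chains over 18 libraries was closest to Skap1 (Pearson coefficient 0.93), Cd96 (0.93), and Tbc1d10c (0.89), and further genes with a similar pattern were Themis, Mmp25, Cd27, Agap2, Cd2 and Ubash3a (0.87 to 0.88). Foxp3 was closest to Traf3ip3 (0.96), Ptprcap (0.95) and Rasal3 (0.94), and Cd4 to Cxcr3 (0.92), a chemokine receptor of activated T cells, Ppp1r16b (0.92) and Fam124a (0.90). Ctla4 was closest to Stat4 (0.93), H2-Ab1 (0.92) and Ipcef1 (0.89).

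For Gzmb and Cd274 the closest genes were others. Gzmb was closest to Il19 (0.93), a cytokine of the interleukin-10 family, Cnnm2 (0.90) and Myd88 (0.89), and its coefficients with the CD3 chains were 0.48 to 0.67. Cd274 was closest to Il12rb1 (0.90), Ubd (0.88) and Nos2 (0.88), and its coefficients with the CD3 chains were 0.57 to 0.66. Those of Ctla4 (0.46 to 0.70), Cd4 (0.53 to 0.67) and Cd8a (0.54 to 0.72) covered much the same range, and those of Foxp3 were 0.72 to 0.83. These coefficients are given as a description, since libraries of 1 mouse are not independent and leukocyte content differs between libraries of a group.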

How the data were processed

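Total RNA of 18 mouse skin samples was sequenced. The authors aligned reads to mm10 with MOSAIK, counted them per gene with HTSeq, divided by scaling factors and applied the variance-stabilising transformation of DESeq2. Deposited were whole-number scores on the linear scale of that transformation, in which 0 reads appear as 39. Software versions, annotation release and strandedness are not given in the sources used here. Genes with low values had been removed before deposition, and the smallest row maximum was 57. Batch medians were scaled by the authors according to their methods, and batches were not named.

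Of 14542 rows, 21 carried a number in place of a symbol (at most 0.236% of the total per library) and were left out. The transformation was inverted with a zero level of 39.13, and 98.6% of values came out as whole reads exactly, and 99.3% of those under 100. Size factors were 0.835 to 1.18, and depth was 15.4 to 21.0 M reads (median 18.9 M). Intervals cover only the spread that remains after the mouse block and the group are fitted, pooled over the 3 groups. Symbols matched GENCODE M21 for 14447 genes (99.5%), 596 of them by an older symbol, and 0 columns were left unmapped.

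Samples were grouped by title. Each mouse gave 1 sample per group, so mouse numbers pair the samples. The correlation of same-mouse deviations averaged 0.06 (CHR and PAP), 0.12 (CHR and SCC) and 0.07 (PAP and SCC). limma 3.58.1 in R 4.3.3 was fitted to log2(value + 1) of all 18 libraries, with the mouse as a fixed block and 1 coefficient per group, with Benjamini-Hochberg adjustment over 14521 genes and no filter. The design allowed for counts, and since the values were transformed scores limma was used. The fits were tested on simulated reads in which a small part of the genes changed, in PAP alone, with the same spread for all genes. That setting does not show how calls hold where many genes change or where libraries vary more, as in SCC vs PAP. Alternatives left out the block or each mouse, changed the pseudocount from 1 to 0, undid the transformation, required a mean normalised count of 10, used quantile normalisation, limma-voom on recovered reads, a spread per group or only the 2 groups compared.

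The members and gene lists were chosen with earlier results of these data known. Named genes were the 10 members, the 3 called genes of each list with the largest change per comparison, 11 genes fixed by name (Pdcd1, Lag3, Havcr2, Tigit, Pdcd1lg2, Cd80, Cd86, Cd8b1, Ptprc, Prf1 and Gzma, of which Tigit was not analysed), and the genes with the most similar patterns. A few genes named by this rule are not reported here. Ratios, correlations and motif matches carry no test.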

Additional observations from a re-analysis of the deposited data

Results flagged for a closer look

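Gaps between 1 library and the other 5 of its group were checked for the 10 genes and 6 ratios in 3 groups, 48 sets of 6 values in all, and 4 sets had a library farther from the rest than Dixon's 95% limit. Chance alone flags about 1 in 20 such sets. Foxp3 in SCC reached a normalised count of 75.3 in mouse 7, with the other carcinomas at 11.7 to 30.9. The ratio of Cd8a to Cd4 in SCC was 2.35 in mouse 9, with the others at 0.316 to 1.04. The ratio of Ctla4 to Foxp3 in CHR was 10.8 in mouse 2, with the others at 3.80 to 5.83. The ratio of Cd274 to the CD3 sum in CHR was 4.40 in mouse 3, with the others at 1.06 to 2.10.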

How the results depend on the processing

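Of the 9 members lower in PAP vs CHR, 5 were called in every alternative, namely Cd3e, Cd3g, Cd247, Cd4 and Cd274. With quantile normalisation 5 stayed called lower there and 4 in the comparison of SCC with CHR. In SCC vs PAP the number of members called higher fell from 1 to 0 without the replicate block, with quantile normalisation, with limma-voom on recovered reads and no replicate block (an alternative chosen after seeing the data), with a spread per group and with only the 2 groups compared, and ranged from 0 to 1 when each mouse was left out. In SCC vs CHR 1 member, Gzmb, was called higher without the replicate block, with quantile normalisation and with a spread per group, and 0 to 1 when each mouse was left out. The count of all genes called in SCC vs PAP, 1430, was 810 without the replicate block, 518 with a spread per group, 0 with only the 2 groups compared (2830 at an unadjusted p under 0.05) and 0 with limma-voom and no replicate block (3083 unadjusted), and ranged from 0 to 1995 over the mice left out. No other count of members or of all genes moved by over 1.5 times without the block. The causes were not tested.

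Signs that turned belonged to genes that had not passed the test, apart from Pdcd1 in PAP vs CHR. Under quantile normalisation the log2 fold change became 0.046 for Pdcd1, 0.38 for Lag3, 0.061 for Cd80 and 0.39 for Gzma in PAP vs CHR, -0.15 for Cd3e, -0.032 for Foxp3, -0.023 for Ctla4, -0.00397 for Pdcd1 and -0.14 for Lag3 in SCC vs PAP, and 0.042 for Pdcd1, 0.25 for Lag3 and 0.18 for Cd80 in SCC vs CHR. When each mouse was left out, the value for Lag3 ranged from -0.24 to 0.0050 in PAP vs CHR and from -0.11 to 0.15 in SCC vs CHR, where it was 0.018 with limma-voom, and that for Gzma ranged from -0.32 to 0.030 in PAP vs CHR. For Pdcd1lg2 in SCC vs CHR it was -0.13 with the transformation undone, -0.17 with limma-voom and no replicate block, and -0.29 to 0.30 over the mice left out. For Cd80 there it ranged from -0.17 to 0.13. Depth limits the rarest transcripts, as Foxp3 rested on 3 reads in 1 papilloma.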
